A study of Mus musculus with 2 samples.

Results

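The cells described here are CD4 T cells from the visceral adipose tissue (VAT, abdominal fat) of mice that carried effector-cell markers and no counted transcript of Ly6c2. They were selected on the measured counts of 11 genes. A cell was a member when at least 2 of the 5 marker genes P2rx7, Itga1, Mmp9, Trerf1 and Cxcr6 had a transcript count of 1 or more, and when Ly6c2, Foxp3, Il1rl1, Il4, Klrk1 and Klrd1 all had a count of 0. The rule found 1054 members among 13191 cells, 217 in the wild-type library and 837 in the library of mice lacking CD27. They are called P2rx7/Itga1 effector cells below, although a member need not carry both of these genes, or either. The levels of the 11 genes of the rule therefore describe the choice and are not results.

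P2rx7 encodes P2X7, a cation channel opened by extracellular ATP that is known on tissue-resident and follicular helper T cells. Itga1 encodes the alpha chain of an integrin that binds collagen, and Cxcr6 encodes the receptor of the chemokine CXCL16; both are commonly used to mark T cells that stay in a tissue. Mmp9 encodes a secreted gelatinase, and Trerf1 a zinc-finger regulator of transcription. Ly6c2 encodes a surface protein of the Ly6 family found on many activated and type 1 effector T cells. Foxp3 marks regulatory T cells, Il1rl1 (the receptor of interleukin 33) and Il4 mark type 2 helper cells, and Klrk1 and Klrd1 encode receptors of natural killer cells and cytotoxic T cells. CD27, a member of the TNF receptor family, gives T cells a costimulatory signal when it binds its ligand CD70.

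The study set CD4 T cells of wild-type mice (WT) beside those of mice without CD27 (CD27-/-, library CD27_KO), under a title that concerns CD27 and CD70 in the control of VAT-resident Th2 cells and metabolism. From the non-adipocyte (stromal vascular) fraction of 10 pooled mice, TCRb+ CD4+ cells were sorted, and each group gave 1 droplet 3′ single-cell library. Both libraries have the genotype entry C57BL/6, and the titles alone name the groups. No treatment is named, and neither the age of the mice nor the construction of the Cd27 allele is given in the sources used here. With 1 library of pooled mice per group there was no spread between mice, no test across samples and no p-value. All intervals are exact, at 95%, and cover counting error only; they take each molecule as independent and are too narrow for genes whose molecules lie in few cells.

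The rule's marker genes lie on different chromosomes, and 4 of them have a promoter entry in RefSeq (GRCm38.p6, from 250 bases before to 50 bases after the transcription start). The windows are printed because these genes define the cells. They were searched on both strands for the letters TGTGGT (RUNX factors), GGTGTGA (T-box factors such as T-bet) and TGANTCA (AP-1), and matches are in capitals. The RUNX and T-box letters can overlap in 1 stretch, but no printed window held both.
P2rx7 start 1 (chr5:122643677-122643976, plus strand): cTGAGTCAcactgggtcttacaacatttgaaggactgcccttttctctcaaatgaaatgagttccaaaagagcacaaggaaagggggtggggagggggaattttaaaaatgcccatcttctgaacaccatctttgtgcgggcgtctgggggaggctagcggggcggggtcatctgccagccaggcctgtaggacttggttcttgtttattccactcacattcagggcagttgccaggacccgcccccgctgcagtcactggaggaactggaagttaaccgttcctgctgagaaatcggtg
P2rx7 start 2 (chr5:122650133-122650432, plus strand): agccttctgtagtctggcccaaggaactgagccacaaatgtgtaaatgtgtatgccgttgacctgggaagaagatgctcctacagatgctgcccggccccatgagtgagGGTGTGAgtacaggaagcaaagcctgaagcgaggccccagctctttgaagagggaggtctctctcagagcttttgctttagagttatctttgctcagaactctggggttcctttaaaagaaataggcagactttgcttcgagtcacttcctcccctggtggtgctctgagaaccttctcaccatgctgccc
Cxcr6 (chr9:123806227-123806526, plus strand): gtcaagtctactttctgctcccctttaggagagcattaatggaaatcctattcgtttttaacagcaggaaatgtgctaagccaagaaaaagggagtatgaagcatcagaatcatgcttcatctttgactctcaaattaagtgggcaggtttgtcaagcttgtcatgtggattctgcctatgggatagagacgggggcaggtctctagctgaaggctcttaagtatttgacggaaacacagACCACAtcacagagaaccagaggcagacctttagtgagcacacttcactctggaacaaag
Itga1 (chr13:115101915-115102214, minus strand): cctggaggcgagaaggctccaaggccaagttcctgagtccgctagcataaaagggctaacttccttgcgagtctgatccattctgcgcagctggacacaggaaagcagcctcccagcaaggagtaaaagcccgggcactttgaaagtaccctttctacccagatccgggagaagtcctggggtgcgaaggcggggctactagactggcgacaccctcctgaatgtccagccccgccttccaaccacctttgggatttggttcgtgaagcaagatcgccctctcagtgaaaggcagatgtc

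The first start of P2rx7 held 1 AP-1 match, its second start 1 T-box match, and Cxcr6 1 RUNX match, whereas the windows of Itga1 and Trerf1 held none of these letters. Among all 32851 promoters in the table, 16.8% held the RUNX letters, 3.98% the T-box letters and 7.81% the AP-1 letters. A match describes letters in a window and is not a binding site. In mm10, P2rx7 spans 122643911 to 122691432 on chromosome 5, Itga1 114953096 to 115101964 on chromosome 13, Mmp9 164940780 to 164955850 on chromosome 2, Trerf1 47140875 to 47361958 on chromosome 17 and Cxcr6 123806475 to 123811760 on chromosome 9. The 3′ ends of P2rx7, Itga1, Mmp9 and Cxcr6 shared no run of 60 bases with another gene. Those of Trerf1 shared one with 8 genes, and that of Ly6c2 with Ly6c1, so reads of these 2 genes may be split among copies.

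The WT library held 6398 barcodes and 16628623 unique molecular identifiers (UMIs, counted transcript molecules), and the CD27_KO library 6893 barcodes and 20191704 UMIs. After cells with under 500 genes or over 10% mitochondrial UMIs were left out, 6338 WT and 6853 CD27_KO cells remained, of which 12 barcodes occurred in both libraries and none of these was a member. Members had a median of 1882 UMIs in WT and 2169 in CD27_KO, close to the 1946 and 2217 of all other cells. Transcripts of the T cell receptor complex were found in 214 of 217 and 835 of 837 members. At least 2 markers of B, myeloid, dendritic or stromal cells were found in 4 and 7 members, and UMIs of Cd8a or Cd8b1, which the sort on CD4 should leave out, in 6 and 19.

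One WT member stood apart. It held 21772 UMIs, of which 802 were Ccl21a, a chemokine of lymphatic endothelium and lymphoid stroma. It also held 97 UMIs of Timp3 and 73 of Igfbp5, with 1 UMI of Cd3e and none of Trac or Cd4, and it passed the rule on 5 UMIs of Itga1 and 1 of P2rx7. Results that rest on this cell are given with and without it. Its removal was chosen after its values were seen.

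The targeted gene Cd27 gave 70 UMIs in 53 of the 217 WT members and 5 UMIs in 4 of the 837 CD27_KO members. As CPM, the UMIs of a gene scaled to a common total of the UMIs summed over the members, these were 120 and 2.18, a log2 ratio of −5.78 (interval −7.45 to −4.49). The Cd27 counts went with the library titles.

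P2rx7/Itga1 effector cells were more frequent in the CD27_KO than in the WT library. They made up 3.42% of WT cells (217 of 6338, Clopper-Pearson interval 2.99 to 3.90) and 12.2% of CD27_KO cells (837 of 6853, 11.4 to 13.01), a ratio of 3.57 (3.07 to 4.16). Because deeper cells meet a 2-marker rule more easily, each cell was also thinned to 1300 UMIs before the rule was applied. The shares were then 2.26% (131 of 5791) and 7.49% (509 of 6798), a ratio of 3.31 (2.73 to 4.04). These are shares of sorted cells, so more of these cells and fewer of the others cannot be told apart. Each marker was also found in a larger share of all kept cells in CD27_KO than in WT. The shares in WT and CD27_KO were 9.12% and 22.4% for P2rx7, 8.08% and 20.6% for Trerf1 and 21.1% and 38.8% for Cxcr6. Itga1 was found in 7.89% and 12.2% and Mmp9 in 6.63% and 10.9%. Cells with 2 or more markers, whatever the excluded genes, were 11.8% and 28.1%, a ratio of 2.38. Whether the member share follows this wider difference was not tested.

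The 2 libraries differed more at higher marker counts. In WT 53.2% and in CD27_KO 50.3% of cells were free of all 6 excluded genes. Among them, cells with no marker were 77.02% in WT and 43.8% in CD27_KO, and cells with exactly 1 marker, just outside the rule, were 16.5% and 31.9%. Cells with exactly 2 markers, just inside it, were 5.28% and 16.97%, cells with 3 were 1.01% and 5.57%, and cells with 4 were 0.148% and 1.42%. All 5 markers were found in 11 CD27_KO cells and in no WT cell, which allows a WT share of up to 0.109% by the exact interval. A rule of at least 3 markers kept 39 WT and 252 CD27_KO cells, with a ratio of 5.98. These shares count the rule's own marker genes and were not thinned. Cells with 3 or more markers had a median of 2028 UMIs in WT and 2590 in CD27_KO. The part of depth, and of the wider rise of each marker, in this gradient was not tested.

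**Figure D1:**
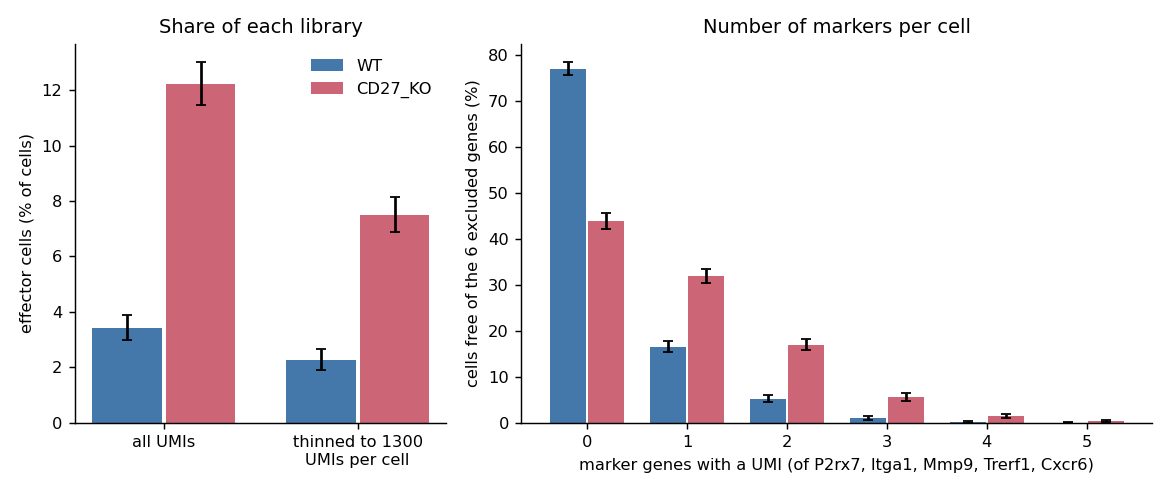
Left, P2rx7/Itga1 effector cells as a percentage of the kept cells of each library, with all UMIs and after thinning each cell to 1300 UMIs. Right, percentage of cells free of the 6 excluded genes that carried 0 to 5 marker genes. Bars are single libraries and error bars are exact 95% binomial intervals for counting error. The CD27_KO bars are above the WT bars for 1 or more markers, and the left bars are 3.42% and 12.2% with all UMIs.

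The markers that made a cell a member are described by library. Trerf1 was found in 36.4% of WT members (interval 29.999 to 43.2) and 50.1% of CD27_KO members (46.6 to 53.5), and P2rx7 in 45.2% (38.4 to 52.0) and 56.0% (52.6 to 59.4), a ratio of 1.24 with an interval of 0.996 to 1.56. The other 3 markers were closer, with Cxcr6 in 65.0% and 67.1%, Itga1 in 40.6% and 35.96%, and Mmp9 in 33.2% and 29.4%. Among the marker pairs, Itga1 and Trerf1 had the largest ratio, 2.13, found together in 6.45% of WT members and 13.7% of CD27_KO members. P2rx7 and Itga1 were found together in 10.6% and 15.7%, a ratio of 1.48 with an interval of 0.94 to 2.41. The ratio was 1.01 for Mmp9 and Cxcr6, 0.89 for Itga1 and Cxcr6 and 0.88 for Itga1 and Mmp9, and the remaining pairs lay between 1.36 and 1.86. As background, the thinned share of cells with P2rx7 was 28.7% of WT and 35.1% of CD27_KO members, against 1.10% (4 of 363) and 1.90% (3 of 158) of naive-like cells, which were free of the 6 excluded genes and carried both Ccr7 and Lef1. P2rx7 is a marker of the rule, so its higher share in members was set by the choice and is not a result. Of all 376 WT and 158 CD27_KO naive-like cells, 4 and 4 were also members.

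A Ly6c2 count of 0 at this depth does not show that a cell lacks the transcript. Ly6c2 was found in 45.5% of the WT cells that had at least 2 markers and none of the other 5 excluded genes (181 of 398), and in 29.0% of such CD27_KO cells (342 of 1179). In cells with no marker the shares were 12.1% and 14.0%. Had Ly6c2 been allowed, members would have been 6.28% of WT and 17.2% of CD27_KO cells, a ratio of 2.74.

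The question of whether the members differ from their nearest neighbours was addressed by setting them beside cells that carried Ly6c2 but none of the other 5 excluded genes, whatever their markers (839 WT and 887 CD27_KO cells). Beyond the rule's own genes, few genes differed. Of 3311 genes with at least 100 UMIs in each library, 4 were at least 1.5-fold higher in members in both libraries (0.121%) and 1 was at least 1.5-fold lower in both (0.0302%). Against the 181 and 342 Ly6c2-positive cells that also had at least 2 markers, 0 of 1572 genes were higher (0%) and 1, the chemokine gene Xcl1, was lower (0.0636%).

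The gene furthest up over Ly6c2-positive cells was Gadd45b, a stress and growth-arrest gene induced by NF-kB. It stood at 233 CPM in WT members against 119 in WT Ly6c2-positive cells, and at 331 against 200.4 in CD27_KO, log2 ratios of 0.97 (interval 0.66 to 1.28) and 0.72 (0.56 to 0.89). The other 3 were Hilpda, a lipid-droplet protein gene induced by hypoxia (0.65 and 0.69), Znrf1, an E3 ubiquitin ligase gene (0.64 and 0.68), and Selenot, a selenoprotein gene of the endoplasmic reticulum (0.86 and 0.61). Gpr183, which encodes the oxysterol receptor EBI2 that guides cells within lymphoid tissue, was the gene that was lower. It was at 194 CPM against 302 in WT (−0.64, interval −0.94 to −0.35) and 93.4 against 194 in CD27_KO (−1.05, −1.29 to −0.82). Gadd45b was also above its Ly6c2-positive level in non-members free of the excluded genes. With 0 markers and 1 marker it was at 174 and 345 CPM in WT, and at 237 and 309 in CD27_KO. The WT value with 1 marker was above that of WT members, and the other values were below those of members. The higher level was therefore not specific to members.

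Type 1 effector genes did not separate the members from Ly6c2-positive cells. Of 13 measured genes of this list, 0 were called in either direction, with medians of −0.18 in WT and −0.20 in CD27_KO against 0.03 and 0.01 over all genes. Ifng, the type 1 cytokine, was at 182 and 206 CPM in members against 150 and 192 in Ly6c2-positive cells. Nkg7, a cytotoxic granule gene, was at 673 and 435 CPM against 784 and 548, and Ccl5, an inflammatory chemokine, at 3581 and 2705 against 4527 and 3363. Both were lower in members in each library, by less than 1.5-fold.

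**Figure D2:**
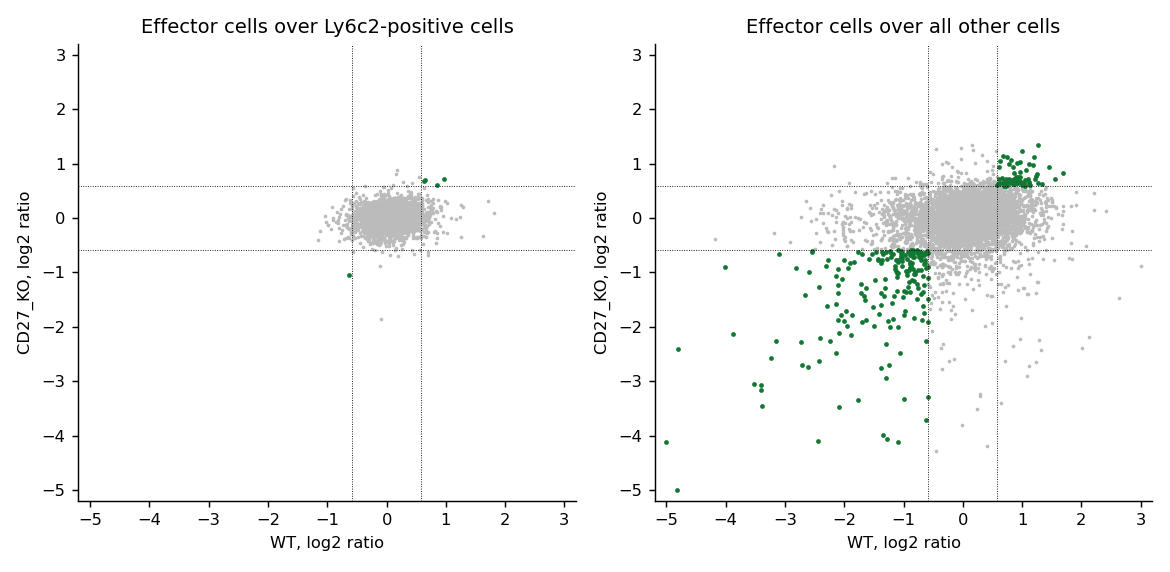
Each point is a gene outside the rule, placed by its log2 ratio in WT (horizontal) and in CD27_KO (vertical), for members over Ly6c2-positive cells (left) and over all other cells (right). Dotted lines mark 1.5-fold, green points passed it the same way in both libraries, and values beyond −5 or 3 are drawn at that limit. The left panel holds 4 green points above and 1 below 0, the right panel 68 above and 193 below.

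Against all other cells of the same library the members were set apart by many more genes. Of 8315 genes, 68 were at least 1.5-fold higher in both libraries (0.818%) and 193 lower (2.32%). This background holds regulatory, type 2 and naive cells, some of which the rule removed through Foxp3, Il1rl1 and Il4, so lower levels of genes found with those 3 are partly set by the choice. Among type 1 effector genes, 5 of 16 were higher and 1 lower, with medians of 0.30 and 0.39 against 0.10 and 0.03 over all genes. Ifng was at 182 CPM against 66.6 in WT and 206 against 108 in CD27_KO (log2 ratios 1.45 and 0.93). The others were Il12rb2, the interleukin 12 receptor chain (0.97 and 1.03), Nkg7 (0.87 and 0.68), Tbx21, which encodes T-bet (0.86 and 0.70), and Ccl5 (0.74 and 0.64). The lower one was Ifngr2, a chain of the interferon gamma receptor (−1.39 and −2.75, from 5 and 8 UMIs in members).

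Adhesion and granule genes gave single calls. Cd226, an activating receptor that binds nectin-family ligands, was the 1 of 14 adhesion genes called higher (0.86 and 0.72), and Itgb1, the beta chain that pairs with the Itga1 product, was 0.46 and 0.42 higher. Lyst, which acts in lysosome and granule traffic, was 0.89 and 0.75 higher, 1 of 11 such genes. Of residency genes outside the rule, 0 of 14 were higher and 2 were lower. The transcription factor gene Prdm1 was at 0.99 and 0.32 and the signalling regulator Rgs1 at 0.44 and 0.41, while Itgae, the integrin chain of epithelial resident cells, gave 2 UMIs in WT and 5 in CD27_KO members. Set against the label of effector cells, some type 1 genes were higher, and the measured residency genes beyond Itga1 and Cxcr6 were not higher at 1.5-fold.

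Genes of recirculating and naive T cells were low. Of 12 measured, 5 were lower in members in both libraries and 0 higher, with medians of −0.64 and −0.55. Klf2, the factor that keeps T cells circulating, was lower by log2 ratios of −0.87 and −0.88, its target S1pr1, the receptor for egress from tissue, by −0.69 and −0.64, and Il7r, the interleukin 7 receptor, by −0.89 and −0.92. Ccr7, the lymph node homing receptor, gave 9 UMIs in WT and 13 in CD27_KO members, at −2.41 and −2.21. Type 2 genes were lower for 6 of 9 and regulatory T cell genes for 7 of 11, and the exclusions bear on both.

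Levels of several genes followed the number of markers outside and inside the rule, among cells free of the 6 excluded genes. Ccl5 went from 1146 CPM at 0 markers to 2519 at 1, 3464 at 2 and 4065 at 3 or more in WT, and from 1458 to 2107, 2422 and 3210 in CD27_KO. Klf2 went the other way, from 671 to 411, 268 and 176 CPM in WT and from 512 to 252, 143 and 141 in CD27_KO. Id2, a repressor of E proteins that supports effector T cells, was higher with each step, from 256 to 896 CPM in WT and from 524 to 1029 in CD27_KO. Ifng, Nkg7 and Bhlhe40 were higher with each step in CD27_KO but not in WT. Their WT levels in the same order were 40.9, 81.1, 200 and 105 CPM for Ifng and 200, 446, 698 and 571 for Nkg7. Bhlhe40 was at 52.1, 160, 132 and 237 CPM in WT. The last WT step held 39 cells. Median UMIs per cell also went up, from 1759 to 2028 in WT and from 1863 to 2590 in CD27_KO, and their part in these trends was not tested.

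**Figure D3:**
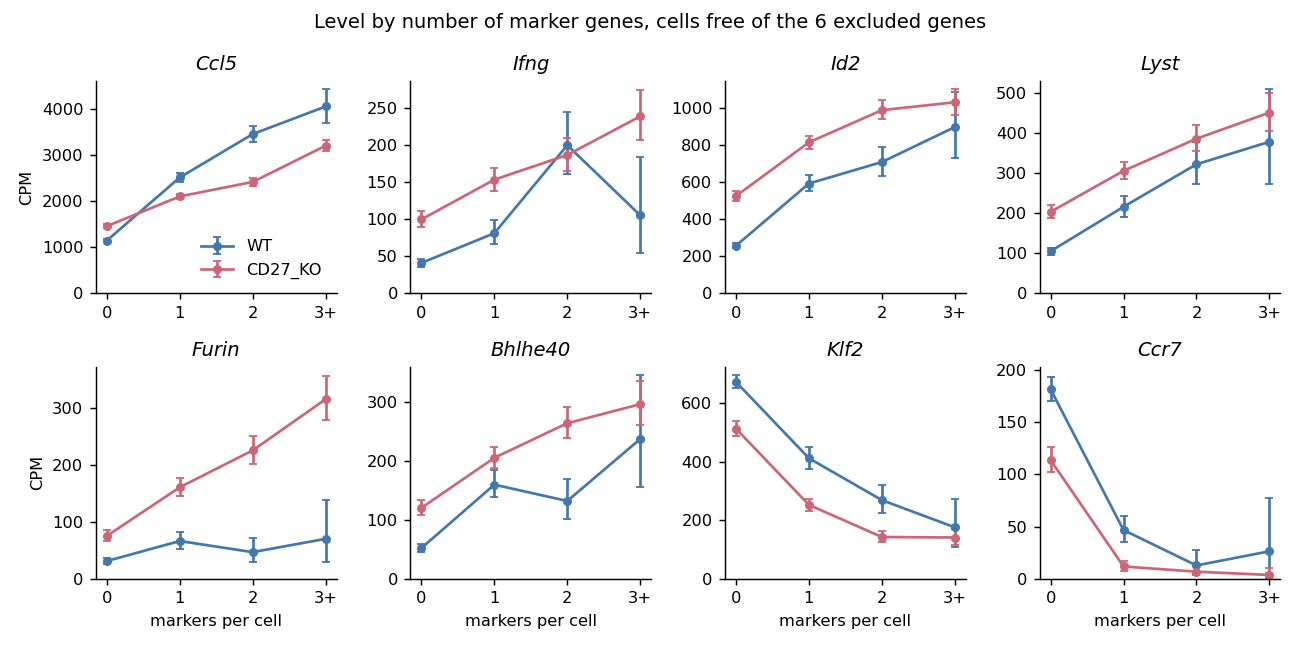
CPM of 8 genes in cells free of the 6 excluded genes, by the number of marker genes with a UMI (0, 1, 2, 3 or more), for WT and CD27_KO. Points are UMIs summed over cells of 1 library and error bars are exact 95% Poisson intervals. The points of Ccl5, Id2 and Lyst are higher with each step to 3 or more markers in both libraries, though the last-step intervals of Id2 and Lyst overlap. Klf2 is lower with each step in WT, with overlapping intervals at the last. In CD27_KO Klf2 is lower up to 2 markers and then level (143 and 141 CPM). The WT points of Ifng and Bhlhe40 do not rise with each step. Furin climbs to 316 CPM in CD27_KO while its WT points stay between 31.2 and 70.2.

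Clustering of all cells without the rule's genes did not isolate the members. At a Leiden resolution of 1, members lay in 13 of 18 clusters in WT and in 17 in CD27_KO. The cluster led by Lyst and Crybg2 outside the rule's genes (cluster 1) held 27.6% of WT and 47.9% of CD27_KO members, but only 12.3% and 23.2% of its own cells were members, and it also held 20.7% and 40.8% of the Ly6c2-positive cells. Cluster 5, led by Il18r1 and Slamf1 and with a median of 4044 UMIs per cell, held 20.3% and 19.7% of the members. A cluster led by Spry2 and Xcl1 (cluster 3) held 17.5% of WT and 4.90% of CD27_KO members, one led by Slamf6 (cluster 0) 11.1% and 3.23%, and one led by Ccl1, Csf2 and Bhlhe40 (cluster 10) 9.22% and 12.2%. The leading genes of cluster 3 also included the killer-cell receptor genes Klrk1 and Klrd1, for which members have a count of 0 by the rule. At a resolution of 0.5 a Slamf6-led cluster held 31.8% of WT and 7.65% of CD27_KO members. At 2 the most WT members (26.3%) lay in a cluster led by Ly6c2, Nkg7 and Ccl5 and the most CD27_KO members (24.4%) in one led by Itga1, Ifngas1 and Lyst. Comparisons between libraries below therefore join cells from clusters in different proportions. Scrublet, a doublet caller, marked 0 cells in each library and so did not work here, and no doublets were removed; 14 WT and 23 CD27_KO members had over 3 times the median UMIs of their library.

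**Figure D4:**
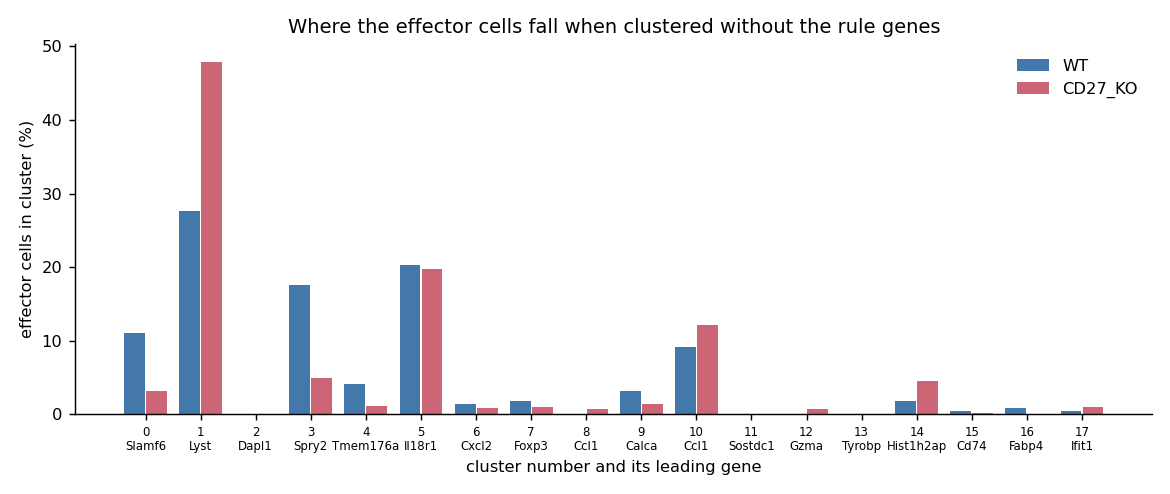
Percentage of the WT and CD27_KO members that fell in each of 18 clusters (resolution 1) computed from both libraries without the rule's genes, with the cluster's leading gene under its number. Bars are single libraries. At this resolution cluster 1 holds the most members in both, 27.6% and 47.9%; at a resolution of 2 the libraries differ in their fullest cluster.

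Within P2rx7/Itga1 effector cells, CD27_KO was set against WT for 3801 genes with at least 100 UMIs over both sums. Furin and Trat1 were higher in CD27_KO members and Gpr183, Tox and S100a6 lower, and these 5 passed 1.5-fold the same way under every alternative run. They were not the only ones, as Lmnb1, Stk11, Glcci1, Axin2 and Ctla2a, among others, did so too. Several other cell-cycle genes and Bhlhe40 were also higher, and Klf2, Slamf6 and Nkg7 lower, but not under every alternative. In all, 292 genes were at least 1.5-fold higher (7.68%) and 93 at least 1.5-fold lower (2.45%), and for 203 and 81 of them the counting interval did not include 0. The median gene stood at 0.10, and relative to it the counts were 185 and 147. Without the Ccl21a-rich WT cell the counts were 295 and 61.

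Furin, the proprotein convertase that cleaves precursors such as pro-TGF-beta, was the gene furthest up. It gave 30 UMIs in 16 of 217 WT members and 591 UMIs in 204 of 837 CD27_KO members, 51.4 and 258 CPM, a log2 ratio of 2.33 (interval 1.80 to 2.91). One CD27_KO cell held 25 of these UMIs. The ratio was 2.76 in Ly6c2-positive cells, 1.28 and 1.27 in cells with 1 and 0 markers, and 0.76 (interval −0.76 to 2.21) in naive-like cells, and after thinning 4.95% of WT and 14.9% of CD27_KO members had a UMI. In CD27_KO the level was higher with each marker, from 75.3 to 161, 226 and 316 CPM, and in WT it was 31.2, 66.3, 46.8 and 70.2. The gene's 3′ end shares a run of 60 bases with 15 other genes, so part of these reads may come from elsewhere.

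Proliferation genes were higher in the CD27_KO members, and 7 of 9 measured cell-cycle genes passed 1.5-fold, with a median log2 ratio of 0.997. Top2a, the topoisomerase of dividing cells, gave 12 UMIs in WT and 220 in CD27_KO (log2 ratio 2.22), Mki67, the gene of the Ki-67 antigen, 7 and 120 (2.13), and Pclaf, a PCNA-binding factor, 15 and 207 (1.81). The UMIs lay in few cells, with Mki67 in 4 WT and 54 CD27_KO members. Cells with a UMI of Mki67 or Top2a were 9 of 217 WT members (4.15%, interval 1.91 to 7.73) and 96 of 837 CD27_KO members (11.5%, 9.39 to 13.8), beside 5.13% and 8.54% of all other cells. Stmn1, a microtubule regulator, Lmnb1, the lamin B1 gene, and Pcna, the polymerase clamp, were at 1.36, 1.43 and 0.9971, and Hmgb2, a chromatin protein gene, at 0.71 (686 and 4396 UMIs). With at least 3 markers, Top2a (−0.11), Mki67 (−0.15), Pclaf (−0.95) and Stmn1 (−0.24) turned. Lmnb1 was then at 0.78, Pcna at 0.30 and Hmgb2 at 0.18. Only 39 WT members had that many markers, so genes of few UMIs lie on small WT counts there. With thinned cells, where the rule was applied again and gave 131 WT and 509 CD27_KO members, Mki67 (−0.37) and Pclaf (−0.22) turned. Top2a (0.36) and Stmn1 (0.47) were then inside 1.5-fold, and Lmnb1 (0.74), Pcna (0.68) and Hmgb2 (0.72) passed it.

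Other genes far up were of varied function. Trat1, an adaptor of the T cell receptor, gave 62 UMIs in WT and 601 in CD27_KO members, 106 and 262 CPM, a log2 ratio of 1.30 (interval 0.93 to 1.71), and it was at 1.04 in Ly6c2-positive cells and 1.39 in cells with 1 marker. Stk11, which encodes the kinase LKB1, was at 1.60 in members (11 and 131 UMIs) and at 0.06 in Ly6c2-positive cells, and the difference was not tested. Glcci1 (1.48), the Wnt target Axin2 (1.33) and the splicing kinase gene Srpk2 (0.97) complete the 12 furthest. The 3′ end of Glcci1 shares a run of 60 bases with 120 genes, so its source is uncertain.

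Ifng and Tbx21 did not pass 1.5-fold between the libraries. Ifng gave 106 UMIs in 49 WT members and 471 UMIs in 243 CD27_KO members, 182 and 206 CPM, and the log2 ratio of 0.18 had an interval from −0.13 to 0.50. With at least 3 markers the ratio was 1.18, from only 12 Ifng UMIs in 39 WT members, and with cells of at least 1000 genes 0.81. Tbx21 stood at 39.4 and 43.7 CPM (0.15, −0.52 to 0.87), and was at −0.68 with at least 3 markers, from 8 UMIs in WT. Ccl5 was lower in CD27_KO by less than 1.5-fold (−0.40, −0.48 to −0.33). In cells with no marker, the ratios were 1.29 for Ifng and 0.35 for Ccl5.

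Of 13 type 1 effector genes, 1 passed 1.5-fold upward and 2 downward, with a median of 0.18. The higher one was Il18rap, the accessory chain of the interleukin 18 receptor (51.4 and 89.9 CPM, log2 ratio 0.81), which was at −0.32 with thinned cells. Nkg7 was lower, with 393 and 996 UMIs (−0.63, −0.80 to −0.46), and so was the cytokine gene Tnf, with 56 and 138 UMIs (−0.67, −1.13 to −0.20). With at least 3 markers Nkg7 was at −0.24 and Tnf at −1.01, and with thinned cells they were at −1.04 and −0.51. Socs2, a feedback inhibitor of cytokine signalling, was at 0.63 (1 of 13 cytokine receptor and signalling genes), and inside 1.5-fold in 7 alternatives, among them at least 3 markers (0.28) and thinned cells (0.32). Icam1, an adhesion ligand, was at 0.85 (1 of 11 adhesion genes).

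Bhlhe40, a transcription factor of tissue-resident and cytokine-producing T cells, was the 1 of 10 residency genes that passed. It was at 153 CPM in WT and 276 CPM in CD27_KO members (log2 ratio 0.85, interval 0.53 to 1.19), at 0.83 in Ly6c2-positive cells and at 1.21 in cells with no marker. With at least 3 markers it was at 0.32, and with thinned cells at 0.52. Rgs1 was at 0.40 and Cd69, an early activation and retention gene, at 0.20. Rora, a nuclear receptor of innate-like and type 17 cells, was at 0.70 and Ccr4, a chemokine receptor of skin-homing and type 2 cells, at 1.05 (16 and 130 UMIs). Klrg1, a receptor of terminal effector cells, was at 1.15 (14 and 122 UMIs). With at least 3 markers Ccr4 was at 0.28 and Klrg1 at 2.23, and with thinned cells they were at 1.005 and 0.23.

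Of 9 recirculation genes measured in the members, 3 were lower in CD27_KO, 0 were higher and 6 did not pass, with a median of −0.22. Klf2 gave 146 UMIs in WT and 325 in CD27_KO, 250 and 142 CPM (log2 ratio −0.82, interval −1.10 to −0.53), and S1pr1 106 and 265 UMIs (−0.65). The latter was at −0.084 with thinned cells and at −0.27 with cells weighted equally. The third, Foxp1, a factor that maintains quiescence, was at −0.60, at −0.29 without the Ccl21a-rich cell and at 0.19 with thinned cells. Klf2 was at −0.32 with at least 3 markers and at −0.33 with thinned cells, inside 1.5-fold. Its ratio was −0.52 in Ly6c2-positive cells and −0.11 in naive-like cells.

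All 3 memory and follicular helper genes with enough UMIs passed 1.5-fold downward, 2 of them not under stricter settings. Tox, a factor of memory and exhausted T cells, gave 45 UMIs in WT and 60 in CD27_KO members, 77.1 and 26.2 CPM (−1.56), Slamf6, a receptor of memory-like cells, 88 and 175 UMIs (−0.98), and Izumo1r, which encodes folate receptor 4, 38 and 94 UMIs (−0.67). With at least 3 markers and with thinned cells, Slamf6 was at −0.56 and −0.42 and Izumo1r at −0.44 and 0.29, whereas Tox was at −0.96 and −1.57. Slamf6 was at −0.35 in Ly6c2-positive cells, the cluster led by Slamf6 at resolution 1 held 11.1% of WT and 3.23% of CD27_KO members, and its part in these ratios was not tested. Tox was also lower in CD27_KO outside the members, so its difference was not specific to them. It was at 99.1 CPM in WT and 45.6 in CD27_KO cells with 0 markers, and at 70.4 and 29.3 with 1 marker. Gpr183 gave 113 UMIs in WT and 214 in CD27_KO, 194 and 93.4 CPM (−1.05, −1.39 to −0.71). Its level by number of markers was 321, 325, 213 and 114 CPM at 0, 1, 2 and 3 or more in WT and 273, 213, 117 and 51.0 in CD27_KO, so the WT level was lower from 2 markers on.

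Of 15 genes of the S100, annexin and galectin list, which holds cytoskeletal and membrane genes of migrating effector cells, 3 were lower and 1 higher. S100a6 was at 3454 CPM in WT and 1806 in CD27_KO members (−0.94, −1.01 to −0.86), Anxa1 at 178 and 107 (−0.73), and Lmna, the lamin A gene, at 92.5 and 47.6 (−0.96). Lmna was at 0.35 with at least 3 markers. Lgals3, a galectin gene, was the higher one at 0.62, and at 0.26 with thinned cells. Anxa1 was at −0.50 with at least 3 markers and at −0.038 with cells of at least 1000 genes. Capg, an actin-capping gene that is also high in regulatory T cells, gave 71 and 96 UMIs (−1.54), and the protease inhibitor gene Ctla2a 221 and 439 (−0.98), with a 3′ end shared with 8 genes.

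Gstp1, a glutathione transferase gene, was lower in every group of cells compared. It gave 159 CPM in WT and 51.1 CPM in CD27_KO members (log2 ratio −1.64), and its ratio lay between −1.82 and −1.39 in Ly6c2-positive, 1-marker, 0-marker and naive-like cells. The gene shares a run of 60 bases with 2 near-identical copies, so this is a difference in the counts given to the listed gene, not specific to these cells.

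Several other genes among the 12 furthest down rested wholly or partly on the Ccl21a-rich cell. Ccl21a gave 802 UMIs, all in that cell, and 0 in CD27_KO. Timp3 gave 110 UMIs in 2 WT cells and Igfbp5 103 in 2, both with 0 in CD27_KO. For the others the ratio with and without that cell was −3.79 and −2.41 for Timp2, −2.09 and −1.16 for Selenop, −1.52 and −0.70 for Jun and −1.32 and −0.19 for Sptbn1. Timp2, Selenop and Jun thus still passed 1.5-fold without it, and Sptbn1 did not. The immediate early genes Egr1 and Fos, which also respond to tissue dissociation, went from −1.22 to −0.66 and from −0.76 to −0.29. Of 9 dissociation genes measured, 3 were lower with the cell included.

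**Figure D5:**
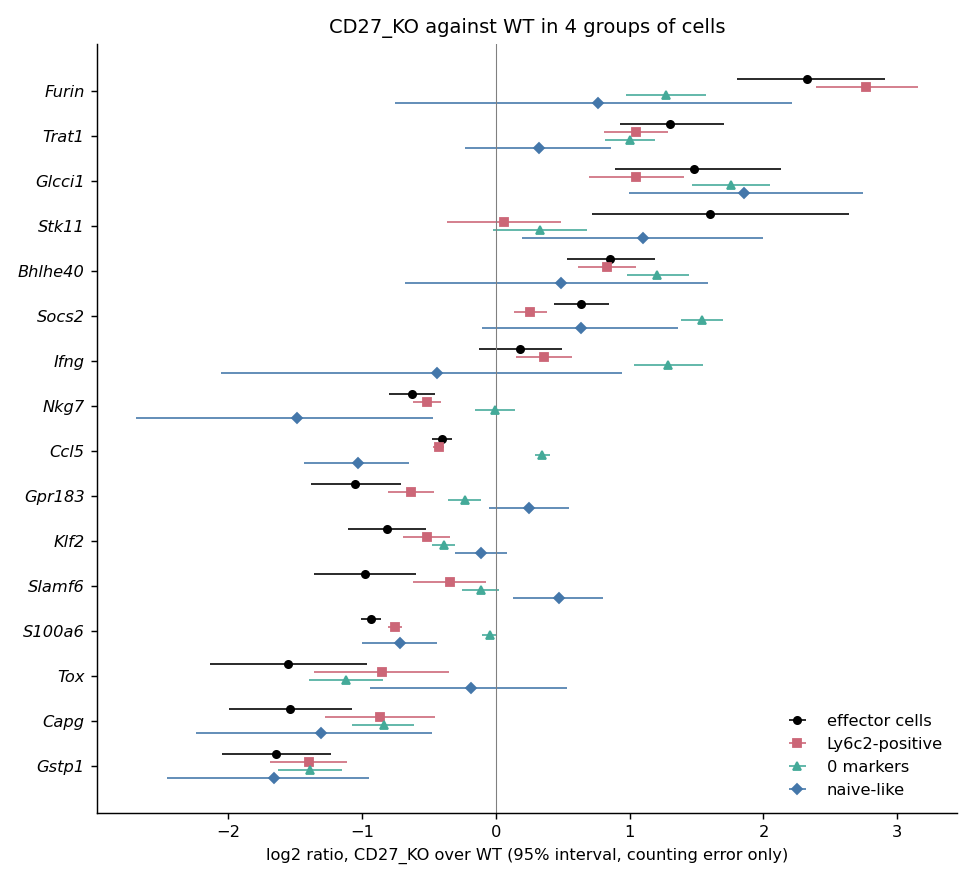
Log2 ratio of CD27_KO over WT for 16 genes in P2rx7/Itga1 effector cells (black circles), Ly6c2-positive cells (red squares), cells with 0 markers (green triangles) and naive-like cells (blue diamonds). Bars are exact 95% intervals for counting error, with 1 library per group. Furin is highest in the effector and Ly6c2-positive cells (2.33 and 2.76), and Gstp1 lies between −1.66 and −1.39 in the 4 groups.

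Genes next to P2rx7 in its pathway were mostly too low for the comparison, as 1 of 13 purinergic and NAD genes reached 100 UMIs. Art2b, the surface ADP-ribosyltransferase that can gate P2X7 in mice, gave 12 UMIs in WT and 87 in CD27_KO (0.89, interval 0.01 to 1.89). Nt5e, which encodes the CD73 enzyme that makes adenosine, gave 25 and 38 UMIs (−1.37, −2.13 to −0.58), and Entpd1, the CD39 enzyme upstream of it, 16 and 56 (−0.17, −0.99 to 0.74). Panx1, an ATP release channel, gave 8 and 47 UMIs and Cd38, an NAD-consuming enzyme, 14 and 80, with intervals across 0 for both. The ligand gene Cd70 gave 1 UMI in each library.

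No T cell identity gene passed 1.5-fold between the libraries. Of 15 such genes, 0 were called higher or lower, with a median of 0.01. Cd3e was at 817 and 870 CPM (0.09), Cd4 at 142 and 173 (0.29) and Trac at 792 and 907 (0.20). With thinned cells Cd4 was at 0.90 and Trac at 0.60, both past 1.5-fold. Oxidative phosphorylation genes gave 0 calls among 17 and a median of 0.00, and glycolysis genes 0 among 13 and a median of −0.24. Genes of the TNF receptor family and their adaptors, to which Cd27 belongs, gave 0 calls among 7, with a median of 0.07.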

How the data were processed

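Per the labels' protocols, TCRb+ CD4+ cells of the stromal vascular fraction of VAT were sorted from pools and loaded on a 10x 3′ platform; the kit version differs between the design text and the sample text, and whether 10 mice went into each pool is unclear. Per the file headers, the authors made the UMI counts with Cell Ranger 6.1.1; the build is mm10 per the submitters' processing notes. The deposited counts cover 32285 genes, and an antibody feature with 0 UMIs was not used.

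Everything else was computed here with Python 3.11.15, numpy 2.4.6, scipy 1.17.1, pandas 2.3.3, scanpy 1.11.5 and igraph 0.11.9. The members and the 42 gene lists were chosen with earlier results of these data known. UMIs were summed over the cells of a group and library and given as CPM. The call rule was a 1.5-fold ratio and a minimum of 100 UMIs summed over the 2 sides, or, for members against other cells, in each library and the same way in both. Ratios with 0 counts on one side used a floor of 3 counts over the group. Comparisons with all other cells and with Ly6c2-positive cells with 2 markers were added after seeing the data. Genes named are the rule's genes, list genes, and the 12 furthest each way by the interval bound nearest 0, or by the smaller of both libraries' ratios. Receptor segments, ribosomal, mitochondrial, sex-linked and unnamed genes were not named. A few other genes are not reported here and were left out of the gene lists, and naive-like cells were defined by Ccr7 and Lef1 after seeing the data. Purinergic, adhesion and other genes under 100 UMIs are given as values only. The steps were tested on simulated counts. Alternatives changed the cell filter, marker number, depth, other cell types, Ly6c2, scaling, weighting and count minimum. Ratios given with thinned cells are from members chosen again by the rule on the thinned counts, so the cells differ as well as the depth. Shares of members with a UMI of P2rx7 or Furin after thinning keep the members of the full counts.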

Additional observations from a re-analysis of the deposited data

How the results depend on the processing

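With 1 library per group, no library could be left out. No paired analysis was possible because each group has 1 library and no result comes from a test. The alternatives for members against all other cells and against Ly6c2-positive cells with 2 markers, and the removal of the Ccl21a-rich WT cell, were chosen after seeing the data. The CD27_KO over WT ratio of shares, 3.57, was 3.03 with at least 1000 genes per cell, 5.98 with at least 3 markers and 2.74 with Ly6c2 allowed, and was within its counting interval for the other settings.

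The 292 higher and 93 lower genes of CD27_KO members were 133 and 54 with at least 3 markers, 98 and 26 after thinning to 1300 UMIs, 185 and 147 relative to the median gene, and 961 and 515 at 30 UMIs, where fewer or more genes were compared (1398, 1187, 3801 and 7306). The lower genes were 60 with cells of other types left out and 61 without the Ccl21a-rich cell. Against Ly6c2-positive cells, the 4 higher and 1 lower genes were 0 and 0 at 1000 genes, 32 and 41 at 30 UMIs, and the lower genes were 7 with at least 3 markers and 2 after thinning, relative to the median gene or without that cell. Against all other cells, the 68 higher genes were 29 at 1000 genes, 241 with at least 3 markers and 105 with cells weighted equally, and the 68 and 193 were 192 and 290 at 30 UMIs. Against Ly6c2-positive cells with 2 markers, 0 higher and 1 lower became 10 and 9 at 30 UMIs; higher genes were 1 after thinning, relative to the median gene or without the Ccl21a-rich cell, and 2 with other cell types left out or cells weighted equally, and lower genes were 0 at 1000 genes, with at least 3 markers, after thinning, with other types left out, relative to the median gene and without that cell.

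Among the genes named in the text and past 1.5-fold in CD27_KO against WT, directions that turned were, with at least 3 markers, Top2a (−0.11), Pclaf (−0.95), Mki67 (−0.15), Stmn1 (−0.24) and Lmna (0.35). After thinning they were Pclaf (−0.22), Mki67 (−0.37), Timp2 (0.042), Sptbn1 (0.88), Xcl1 (0.50), Il18rap (−0.32), Foxp1 (0.19) and Izumo1r (0.29). Of genes inside 1.5-fold, Tbx21 (0.15) was at −0.68 and Il7r (0.18) at −0.21 with at least 3 markers, and Tbx21 was at −0.48 and Cd3e (0.09) at −0.12 after thinning. Thinning left 131 WT members and the rule of at least 3 markers left 39, so genes of few UMIs lie on small counts in both. The causes were not tested.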
